A study of Drosophila melanogaster with 3 samples.

Results

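The regions described here are places in divergent gaps, the stretches of DNA between a pair of neighbouring genes that are transcribed away from each other, where anti-GFP peaks recurred in embryos with GFP-tagged Tango. They were chosen by peak position: summits of the 3 per-replicate peak lists were joined where they lay within 150 bp, a core region was kept if it was in at least 2 lists, and its median summit had to lie between a minus-strand and a plus-strand protein-coding start site at most 1000 bp apart. This gave 628 regions, 18.1% of 3463 core regions and 37.8% (35.5 to 40.1, 95% Wilson interval) of the 1663 core regions in promoters, where a promoter spans 1000 bp before and 200 bp after a start site. They lay between 620 distinct pairs of start sites and touched 1230 genes. The other 1035 promoter core regions, outside divergent gaps, served as the comparison set.

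Chromatin immunoprecipitation sequencing had been done with an antibody against GFP on Drosophila melanogaster embryos, whole and 0 to 24 h old, of the strain tgo-GFP, in which a tgo-eGFP fusion protein is made from an insertion targeting tgo. Chromatin was sonicated to fragments of 200 to 800 bp. The series held 1 group of 3 biological replicates, so every sample carried the tag, and no untagged sample was analysed here. Whole embryos of all these ages hold every embryonic cell type, so a region bound in few cells and one bound weakly in many cannot be told apart.

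Tango, the fly counterpart of mammalian ARNT, is a bHLH-PAS transcription factor and the shared partner of Single-minded, Trachealess, Similar and Spineless. Pairs with Single-minded, Trachealess or Similar recognise sites around ACGTG, and the pair with Spineless recognises sites around GCGTG. Divergent gene pairs are common in the compact fly genome, where one short stretch of open chromatin can serve both start sites. Many such pairs are housekeeping genes, and their promoters are known for the DNA replication-related element, whose core is the palindrome TATCGATA bound by DREF, for CGATA repeats bound by the insulator protein BEAF-32, and for the element with GGTCACAC bound by M1BP. GAGA repeats, bound by Trithorax-like, are known from promoters of developmental genes.

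The sequences of strong regions in short gaps are shown first, since in gaps of 200 to 300 bp, the class of 209 members, the summit lay close to the middle of the gap. The 4 gaps printed here belong to members among the 15 with the highest signal. The last one is a gap of similar length with no summit in any list, picked because its midpoint GC was nearest the median of such gaps. Each runs 5′ to 3′ on the plus strand of the NCBI release 6 assembly, whose coordinates are those of dm6, from the first base of the minus-strand transcript to the first base of the plus-strand transcript. Capitals mark runs of at least 8 bases with only A and T.
CG7601/CIA30 (chr3R:29736745-29736965): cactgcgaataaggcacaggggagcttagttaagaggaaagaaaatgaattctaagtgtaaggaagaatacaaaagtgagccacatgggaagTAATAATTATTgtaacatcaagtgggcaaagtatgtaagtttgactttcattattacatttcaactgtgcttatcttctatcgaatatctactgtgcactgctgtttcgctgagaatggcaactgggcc
Tcs5/CHMP2B (chr3L:5139395-5139619): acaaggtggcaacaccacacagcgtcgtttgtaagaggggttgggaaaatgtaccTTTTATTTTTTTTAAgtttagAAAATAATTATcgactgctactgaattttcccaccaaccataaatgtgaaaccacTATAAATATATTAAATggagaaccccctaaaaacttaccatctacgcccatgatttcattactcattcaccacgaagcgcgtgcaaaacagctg
mRpL23/CG9004 (chr3L:2373501-2373728): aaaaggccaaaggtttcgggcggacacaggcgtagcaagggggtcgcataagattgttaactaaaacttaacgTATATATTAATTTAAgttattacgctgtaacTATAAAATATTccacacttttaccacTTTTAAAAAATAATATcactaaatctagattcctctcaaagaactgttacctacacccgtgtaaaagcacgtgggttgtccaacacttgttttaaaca
CG13390/CG17294 (chr2L:8376797-8377035): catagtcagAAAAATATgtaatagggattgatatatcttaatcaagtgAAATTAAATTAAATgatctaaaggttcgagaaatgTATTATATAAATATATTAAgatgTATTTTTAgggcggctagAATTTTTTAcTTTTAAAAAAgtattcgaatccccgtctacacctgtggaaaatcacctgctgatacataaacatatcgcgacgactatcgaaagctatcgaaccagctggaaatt
Sfp24F/CG15432 (chr2L:4442060-4442320): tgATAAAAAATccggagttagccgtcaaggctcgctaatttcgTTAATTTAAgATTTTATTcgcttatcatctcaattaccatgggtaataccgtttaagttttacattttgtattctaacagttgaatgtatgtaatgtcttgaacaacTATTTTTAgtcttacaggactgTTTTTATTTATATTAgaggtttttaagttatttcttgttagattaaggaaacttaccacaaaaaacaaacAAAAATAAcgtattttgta
In the first 4 gaps the summit fell at bases 108, 102, 97 and 91 of 221, 225, 228 and 239. The share of the gap in capitals was 4.98%, 18.7%, 18.4% and 28.5%, against 21.8% of the 261 bases in the gap with no summit. It was 15.9% in the Art3/mRpS10 gap, chosen by the same rule but not printed. A/T-rich runs were thus present with and without a peak in these examples.

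The deposited lists held 3605, 4759 and 3026 thresholded peaks on the chromosome arms in replicates 1, 2 and 3, and 689, 714 and 560 of them had their summit in a divergent gap. In proportion to all promoter peaks of the same list these were 38.8%, 32.8% and 38.4%, or 36.7% ± 3.36 (SD, n = 3). Peak signal is given as a percentile within its own list, since no source used here gives the unit of the deposited signal. Read depth behind the peaks is unknown.

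Of the 628 regions, 480 were in all 3 lists, which is 76.4% (73.0 to 79.6), against a background of 65.6% of all core regions and 70.0% of the other promoter core regions. The demand for 2 lists chose the members, so these shares are descriptions. The 148 regions in only 2 lists were divided unevenly: 99 were absent from replicate 3, 32 from replicate 1 and 17 from replicate 2. For 130 of them the longer ranked list of the third replicate had a candidate within 150 bp, with a median percentile of 89.3 in that list. Just outside the rule were 208 regions in divergent gaps found in a single list, with a median percentile of 18.4, against 34.1 for members in 2 lists and 71.5 for members in 3. At the limit of length, the Pax/Lectin-galC1 gap of 977 bp was the longest kept. The raptor/Nep1 gap of 1004 bp and the Eno/Rrp40 gap of 1015 bp were the first left out.

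Recovery in a replicate that had no part in the choice is independent of the rule. When the regions were chosen from 2 lists alone, 93.6% of 514, 96.6% of 498 and 82.9% of 578 had a summit within 150 bp in the list left out (replicates 1, 2 and 3). The other promoter core regions reached 90.2%, 97.2% and 77.2%. The regions between divergent pairs were higher in 2 of 3 lists, by 2.82 ± 3.15 percentage points (SD, n = 3), and the difference did not exceed its spread (exact sign-flip test over the lists, two-sided, p = 0.500). Their median percentile in the list left out was 74.7, 75.4 and 66.4, against 72.0, 79.8 and 63.3 at other promoters, a difference of 0.464 ± 4.21 with a mixed sign (exact p = 1.00). Replication was therefore high in both kinds of promoter, and a difference between them was not resolved. With 3 lists this exact test cannot go below p = 0.25, and the lists share most of their regions, so its p describes these lists only.

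Genes at divergent gaps had a promoter core region more often than other genes, and the share of gaps with one differed by gap length. Of 2511 gaps in the annotation with no other start site inside, 512 held a core region, which is 20.4% (18.9 to 22.0). Counted by gene, a core region lay in the promoter of 1379 of 4875 genes at such gaps (28.3%, 27 to 29.6), against 9.68% (9.09 to 10.3) of 9093 genes elsewhere. A gap offers promoter room to 2 genes at once, so the gene shares count many regions for both partners. Classes of length leave out their lower bound. The share with a core region was 2.16% of 416 gaps up to 100 bp and 9.01% of 344 gaps of 100 to 200 bp. It was 34.9% of 519 gaps of 200 to 300 bp, 30.1% of 621 gaps of 300 to 500 bp and 17.0% of 611 gaps of 500 to 1000 bp. Long gaps, with the most room, were thus not those most often occupied.

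The difference lay at a length of about 200 bp. Of gaps of 150 to 200 bp, 12.5%, 11.8% and 10.4% held a peak in replicates 1, 2 and 3, and of gaps of 200 to 250 bp 37.7%, 37.3% and 32.5% did. The longer class was higher in all 3 lists, by 24.2 ± 1.91 percentage points (SD, n = 3). The 50 bp classes were not part of the plan, and the shares rest on the same peak positions as the rule. The step is therefore a description with no test. Short gaps leave less room for a summit, so gaps were also scored by a summit within 150 bp of their midpoint, on either side of the start sites. This gives every gap a window of the same length. The shares were then 13.5% up to 100 bp, 14.2% at 100 to 200 bp, 34.9% at 200 to 300 bp, 28.3% at 300 to 500 bp and 6.06% at 500 to 1000 bp. The neighbouring 50 bp classes on either side of 200 bp differed by 23.4 ± 1.01 percentage points in the same direction in all 3 lists. The step at 200 bp was thus 24.2 points by summits inside the gap and 23.4 points by windows of equal length. In gaps up to 200 bp the added room lies past the start sites, in transcribed sequence, and is unlike room inside a gap. The part of room in the step was therefore not tested. A window that holds the whole gap cannot give a lower share, so the order in gaps up to 100 bp was fixed in advance.

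**Figure D1:**
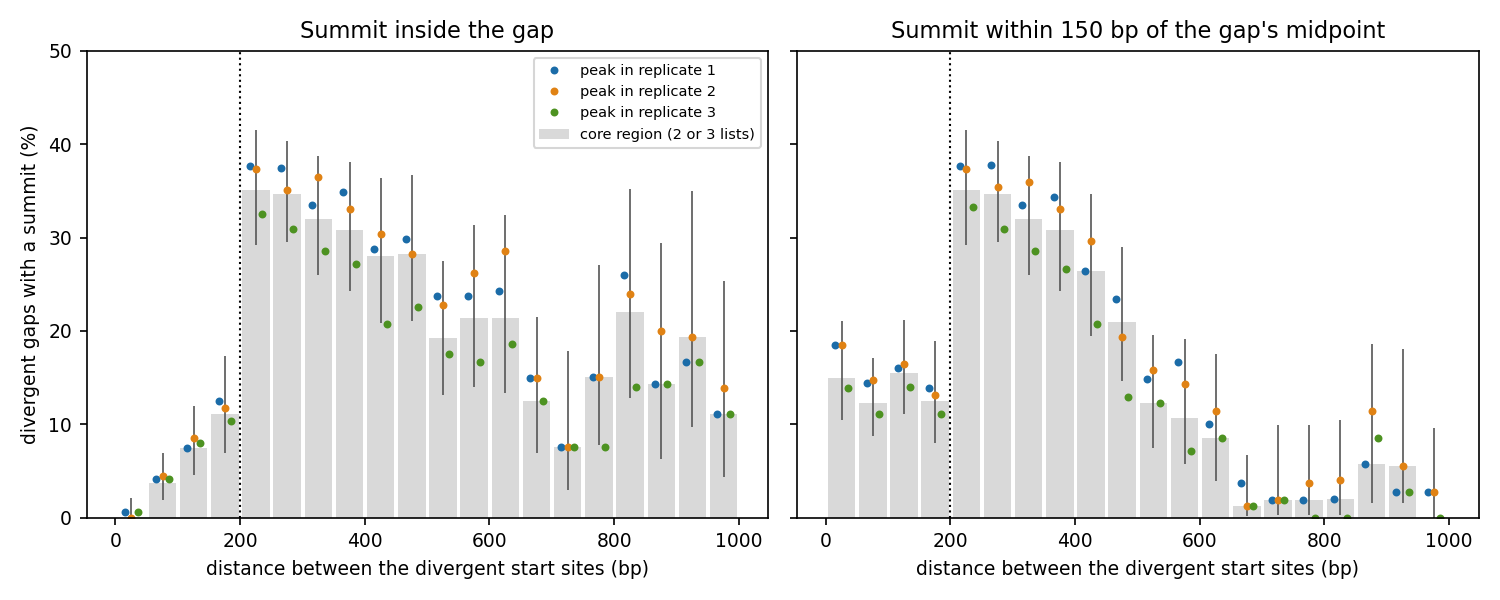
Share of divergent gaps with a summit (y axis, %) by the distance between the start sites in 50 bp classes (x axis, bp), for summits inside the gap (left) and within 150 bp of its midpoint (right). Grey bars are core regions with 95% Wilson intervals, coloured points are the 3 replicate lists, and the dotted line is at 200 bp: on the left 11.1% of gaps of 150 to 200 bp and 35.1% of gaps of 200 to 250 bp held a core region.

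Within their gaps the summits kept a distance from the start sites. The median summit lay 109 bp from the nearer start (quartiles 80 and 137) and 220 bp from the farther one, with 377 of 628 regions 80 to 160 bp from the nearer start. Other promoter core regions lay a median of 220 bp from the nearest start. List by list the medians were 105, 102 and 100 bp against 227, 216 and 211 bp, and the groups of lists did not overlap. The gap limit bounds this distance for members, so the difference is given with no test. In gaps of 200 to 300 bp the summit was close to the middle, with a median of 100 bp to the nearer and 151 bp to the farther start. In gaps of 500 to 1000 bp it stayed near one start, at a median of 133 bp, with 523 bp to the other. Neither strand was favoured, with 313 summits nearer to the minus-strand start, 312 nearer to the plus-strand start and 3 at equal distance. The summits of one region differed between lists by a median of 27 bp, and in 449 of 628 regions no list had a peak interval that covered both start sites.

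**Figure D2:**
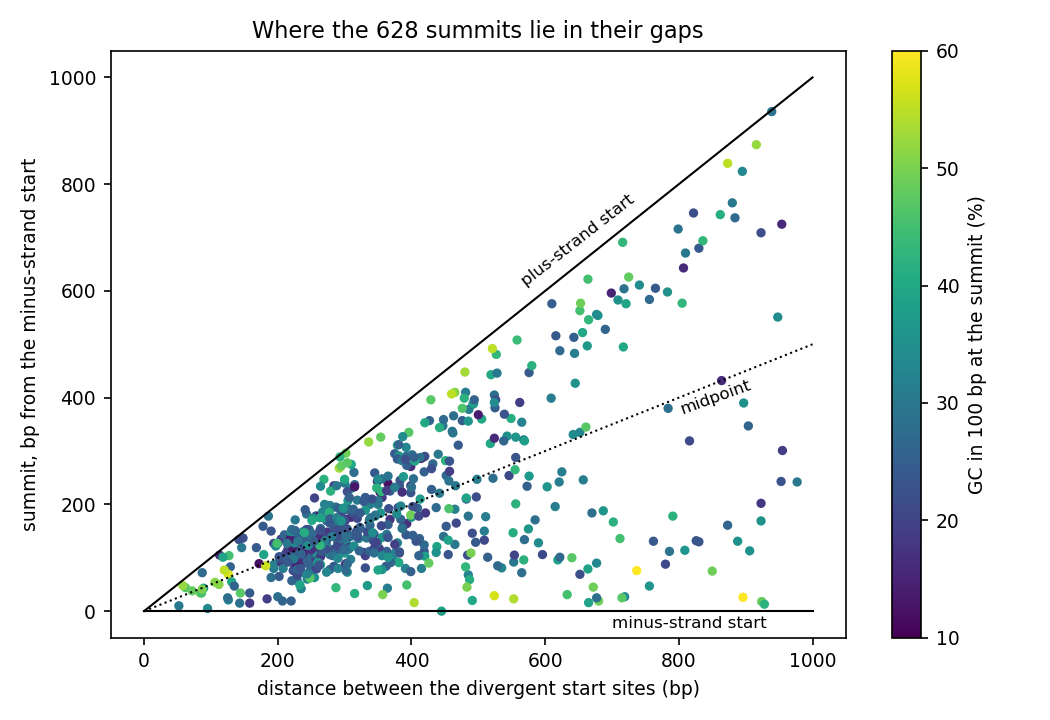
Each point is 1 of the 628 regions, placed by the distance between its start sites (x axis, bp) and the distance of its summit from the minus-strand start (y axis, bp), with GC content of the 100 bp at the summit as colour. Solid lines are the 2 start sites and the dotted line is the midpoint: summits in gaps of 200 to 300 bp lie around the midpoint, and those in gaps of 500 to 1000 bp lie mostly at a median of 133 bp from one of the starts.

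The regions with the highest signal were chosen by their mean percentile over all 3 lists, so their percentiles are descriptions. First by mean percentile was the region of Ugalt, a UDP-galactose transporter gene, and eIF2Bbeta, which encodes a subunit of the exchange factor of eIF2, at chrX:2703701-2704061. Its percentiles were 99.96, 99.99 and 99.98, and its summit lay 27 bp from the Ugalt start in a gap of 719 bp. It was followed by mRpL41/CG8079 on chromosome arm 2R, with 99.99, 99.93 and 99.82. The gene mRpL41 encodes a protein of the mitochondrial ribosome, and 4 of the 15 highest regions stood at a gene of this kind (mRpL41, mRpS23, mRpS10 and mRpL23), against 17 of all 628, with no test of the difference. Next was CG7601/CIA30, with percentiles of 99.90, 99.91 and 99.85 and its summit 107 bp and 113 bp from the starts. CIA30 is known as an assembly factor of respiratory complex I. Also among the 15 were Chro (Chromator) beside Ssl1, a subunit of TFIIH, at 99.63, 99.74 and 99.62, and brm, the Brahma ATPase of the SWI/SNF complex, beside Arl1, a GTPase of the Golgi, at 99.21, 98.7 and 98.7.

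Members with lower signal differed more between lists and differed in other ways. Members were divided by mean percentile into 4 classes of 157. In the strongest class, above 82.6, the mean GC content was 26.3%, the median gap 278 bp and the median spread of summits between lists 18.0 bp. In the weakest class, below 40.4, these were 32.7%, 387 bp and 37.0 bp. The share with TATCGA was 3.82%, 7.01%, 11.5% and 12.7% from the strongest to the weakest class, and the share with ACGTG was 5.10%, 5.10%, 5.73% and 3.18%. The classes were cut from the same peaks that placed the summits, so these values are descriptions.

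The base composition at the summits was lower in GC than at other promoters, in sequence that was higher in GC around it. The 100 bp at the summit held 29.1%, 29.9% and 30.1% GC in replicates 1, 2 and 3, against 31.3%, 32.1% and 32.6% at the other promoter core regions. The difference was −2.30 ± 0.207 percentage points (SD, n = 3), lower in all 3 lists (exact p = 0.25, the smallest possible). The lists were read at largely the same regions, 596, 611 and 529 of the 628 members. The SD over lists is therefore not a spread over independent regions. In windows 500 bp to either side the order was the opposite, with 49.5% ± 0.220 against 43.3% ± 0.0491. The drop from flank to summit was therefore larger between divergent pairs, at −19.8 ± 0.721 percentage points against −11.3 ± 0.674. The flanks of a short gap lie inside the 2 transcribed genes, and the share of coding sequence in the flanks was not compared. Mean GC at the summit was 41.8% for the 10 regions in gaps up to 100 bp, 26.4% at 200 to 300 bp and 33.6% at 500 to 1000 bp. A run of at least 8 bases of only A and T was present in 87.9% of the windows, against 80.4% at other promoter core regions and 60.8% of windows 150 to 50 bp upstream of all 19270 start sites.

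**Figure D3:**
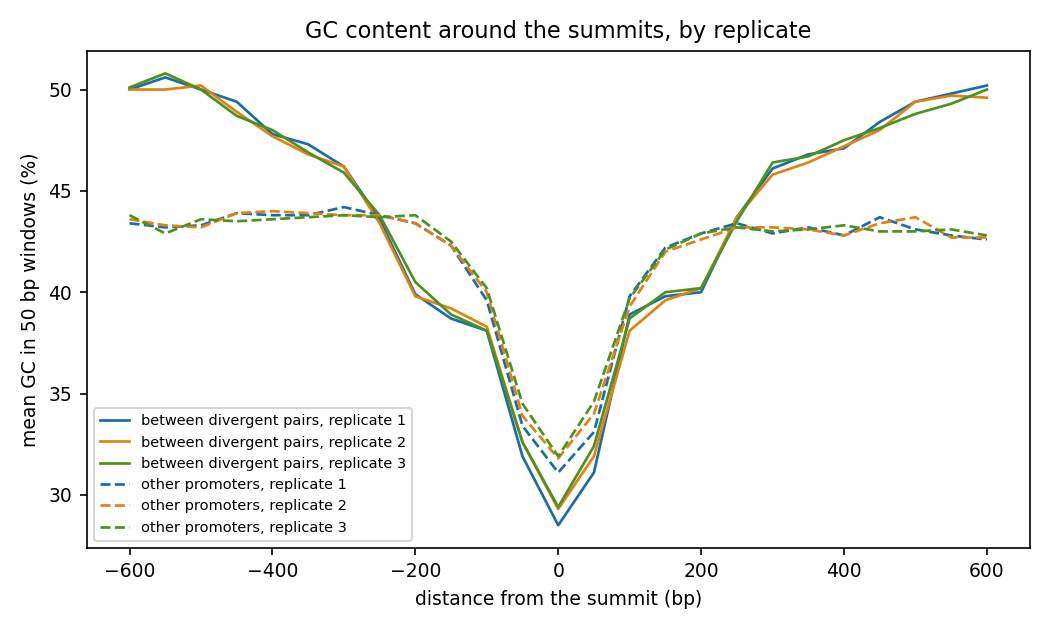
Mean GC content in 50 bp windows (y axis, %) by distance from the summit (x axis, bp) in each of the 3 replicate lists, with solid lines for regions between divergent pairs and dashed lines for other promoter core regions. The solid lines lie below the dashed ones at the summit (29.7% against 32.0% in 100 bp windows, mean over lists) and above them 500 bp away (49.5% against 43.3%).

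The middle of every gap of 200 to 300 bp was also read, a window whose place does not depend on the peaks. The 100 bp at the midpoint held 24.5% GC in the 181 gaps with a core region and 29.9% in the 338 without. By list, gaps with a peak were lower by 5.23 ± 0.0760 percentage points (SD, n = 3), in all 3 lists (exact p = 0.25). TATAA, on either strand, was in 60.2% of the midpoints with a core region and 47.0% of those without, and AAAAAA in 40.3% and 27.5%. In gaps of 300 to 500 bp the GC content was 26.6% and 28.9%, in the same order. AAAAAA had the opposite order there, in 28.9% with a core region and 33.6% without, lower with a peak in all 3 lists by 5.53 ± 0.615 points (exact p = 0.25). At both lengths the midpoints of gaps with a peak were thus lower in GC, while the order for AAAAAA differed. The part of base composition in library preparation and peak calling was not tested, since no input track was used here.

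The motifs of Tango's own pairs were not more frequent at these summits than at other promoters. ACGTG, searched on both strands in the 100 bp at the summit, was in 30 of 628 regions, or 4.78% (3.37 to 6.74), against 6.38% of other promoter core regions and 7.09% of all promoter windows of the same length. By list the shares were 4.87%, 5.40% and 4.73%, below the 6.26%, 6.71% and 6.44% at other promoters in all 3 lists (exact p = 0.25, 0.325 after Benjamini-Hochberg adjustment over 13 motifs). GCGTG was in 5.73%, 6.18% and 10.2% of the same 3 sets, with no constant sign between lists. The 3 sets were not matched for base composition. Both motifs are rich in G and C, and member windows held less GC than other promoter windows (29.7% against 32.0%, mean over lists). The part of base composition in these shares was not tested. The palindrome CACGTG, which contains ACGTG, was in 2 regions, Ripalpha/RpL7 and Mic26-27/CG5916. The windows of 2 strong regions with ACGTG are printed to show where it lay, with the motif in capitals, on the plus strand, with the summit at base 51.
mRpL20/Icmt (chr3L:13018088-13018187): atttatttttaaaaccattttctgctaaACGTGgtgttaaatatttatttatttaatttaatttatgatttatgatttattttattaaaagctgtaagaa
alphaCOP/CG13919 (chr3L:1645283-1645382): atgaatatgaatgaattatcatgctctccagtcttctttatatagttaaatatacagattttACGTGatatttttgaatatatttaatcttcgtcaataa
The mRpL20/Icmt region had percentiles of 96.7, 97.7 and 96.6, and the alphaCOP/CG13919 region 95.5, 96.7 and 92.8. Icmt encodes an isoprenylcysteine methyltransferase and alphaCOP a subunit of the COPI vesicle coat.

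The DREF palindrome was more often beside the summits than under them. TATCGATA was in 2.55% of the 100 bp windows, against 0.870% at other promoter core regions and 2.24% of all promoter windows, but its share was higher farther out. Between 50 and 100 bp from the summit it was in 6.21%, 6.71% and 6.81% of the regions in replicates 1, 2 and 3, against 0.939%, 1.38% and 1.46% at other promoters. Between 100 and 150 bp the mean was 6.60% ± 0.508 against 1.69% ± 0.442, and between 200 and 250 bp it was 1.09% ± 0.403 against 0.682% ± 0.0519. All 3 lists had the same sign in each band (exact p = 0.25). The bands were not matched for distance to a start site. The nearer start lay a median of 109 bp from member summits and 220 bp from other promoter summits. How much transcribed sequence each band held was not compared. Within 100 bp on either side, 57 regions had the palindrome (9.08%, 7.07 to 11.6), against 2.22% (1.49 to 3.31) of other promoter core regions and 6.14% of 200 bp windows centred 100 bp upstream of all start sites. Of 113 such motifs inside the gap and within 200 bp of the summit, 91 were closer to a start site than the summit was. Summits near the middle of a gap leave most positions closer to a start than they are. The share of such positions was not counted, so the 91 have no background. Over all 113 the median distance was 37.0 bp from the nearer start and 105 bp from the summit.

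GAGAG showed the opposite order. Between 100 and 150 bp from the summit it was in 9.73%, 8.51% and 9.45% of the regions between divergent pairs, against 26.5%, 24.5% and 26.9% of other promoter core regions. The difference was −16.7 ± 0.730 percentage points, in the same direction in all 3 lists (exact p = 0.25). It had the same sign in each of the 6 distance bands out to 300 bp. As for TATCGATA, the bands were not matched for distance to a start site or for transcribed sequence. ACGTG differed by −1.48 to 1.84 points in the bands out to 250 bp, with a mixed sign between lists from 100 to 200 bp, and was higher between divergent pairs by 4.05 ± 0.906 points from 250 to 300 bp.

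**Figure D4:**
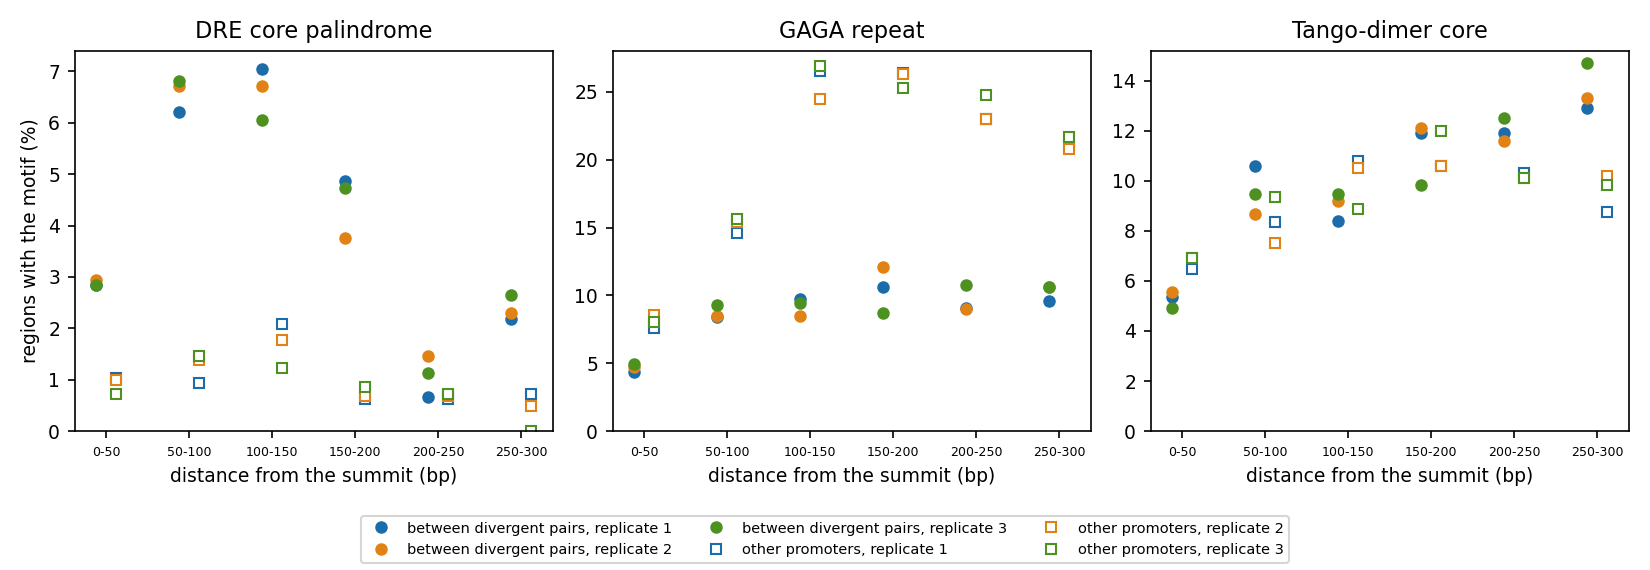
Share of regions with a motif (y axis, %) by distance from the summit on either side (x axis, bands in bp), for TATCGATA (DRE core palindrome), GAGAG (GAGA repeat) and ACGTG (Tango-dimer core). Filled circles are regions between divergent pairs and open squares other promoter core regions, coloured by replicate: the first motif is higher and the second lower between divergent pairs, as in the band from 100 to 150 bp with means of 6.60% against 1.69% and 9.23% against 25.9%. The bands were not matched for distance to a start site.

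The motifs were also read in whole gaps with and without a core region. Among gaps of 200 to 300 bp, TATCGATA was in 18.2% (13.3 to 24.5) of those with a core region and 15.1% (11.7 to 19.3) of those without. At 300 to 500 bp it was in 21.9% and 21.2%, with a difference by list of 0.823 ± 2.35 percentage points (exact p = 0.750). In gaps of 500 to 1000 bp the shares were 29.8% (21.9 to 39.2) and 16.6% (13.6 to 20.1), a difference by list of 11.8 ± 1.99 points, positive in all 3 lists (exact p = 0.25). ACGTG was in 17.7% and 16.6% of gaps of 200 to 300 bp with and without a core region, and in 30.8% and 32.9% of those of 500 to 1000 bp. At 200 to 500 bp the intervals of gaps with and without a core region overlapped for both motifs.

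Regions at genes of the cytosolic ribosome differed from the other members in sequence and position. At 34 of the 628 regions at least 1 gene of the pair encodes a ribosomal protein, and 30 of the 34 summits were nearer to that gene's start than to the partner's, at a median of 54.0 bp. Their mean GC content was 42.7%, 44.6% and 44.5% in replicates 1, 2 and 3, against 28.3%, 29.1% and 29.3% at the other pairs, a difference of 15 ± 0.584 percentage points (SD, n = 3, exact p = 0.25). This comparison was not part of the plan. GC was higher near start sites in both groups. Within 50 bp of a start it averaged 48.7% at 15 ribosomal protein gene pairs and 36.8% at 67 other pairs, and beyond 100 bp 30.3% at 7 and 27.2% at 357. TATCGA was in 37.5%, 28.1% and 42.9% of these regions, against 7.09%, 7.43% and 7.58% of the others. Over all members it was in 8.76%, near the 8.94% of all promoter windows. ACGTG was in 21.9%, 21.9% and 14.3%, against 3.90%, 4.49% and 4.19%, and TATAA in 18.8%, 18.8% and 14.3%, against 49.8%, 49.4% and 49.5%. The groups of lists did not overlap in any of these quantities. The 16 other promoter core regions nearest a ribosomal protein gene had 45.8% ± 2.25 GC and ACGTG in 16.6% ± 2.23, so neither value was particular to divergent gaps. TATCGA was in 28.6%, 25% and 8.33% of them, below the ribosomal members in all 3 lists and in replicate 3 near the other pairs. These shares rest on only 14, 16 and 12 regions in replicates 1, 2 and 3.

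Windows of 3 of these regions are printed with TATCGATA or GGTCACAC in capitals, on the plus strand, with the summit at base 51, since here the palindrome or the M1BP element lay under the summit.
RpS25/CG4820 (chr3R:11216299-11216398): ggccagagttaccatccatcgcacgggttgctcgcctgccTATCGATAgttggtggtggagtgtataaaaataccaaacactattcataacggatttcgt
RpL28/eIF1 (chr3L:3223001-3223100): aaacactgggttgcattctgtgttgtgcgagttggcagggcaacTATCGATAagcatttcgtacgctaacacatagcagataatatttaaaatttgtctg
CG7130/RpLP0 (chr3L:22076023-22076122): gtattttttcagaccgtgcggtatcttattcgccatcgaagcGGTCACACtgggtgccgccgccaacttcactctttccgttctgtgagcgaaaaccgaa
RpS25 and RpL28 encode proteins of the small and the large subunit, and RpLP0 a protein of the stalk. Their regions were of middle to high signal, with percentiles of 80.4, 82.3 and 79.8 for RpS25/CG4820, 69.2, 65.6 and 54.8 for RpL28/eIF1, and 49.3, 61.1 and 61.7 for CG7130/RpLP0. Of the 57 regions with TATCGATA within 100 bp of the summit, 11 were at ribosomal protein gene pairs. GGTCACAC was in 5 of the 628 summit windows (0.796%), against 0.483% of other promoter core regions and 1.22% of all promoter windows. The printed windows were picked for a central motif. In windows not printed, TATCGATA was centred at −38 bp from the summit of RpL34a/Trmt61 and GGTCACAC at 39 bp from that of CG13690/RpLP1.

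**Figure D5:**
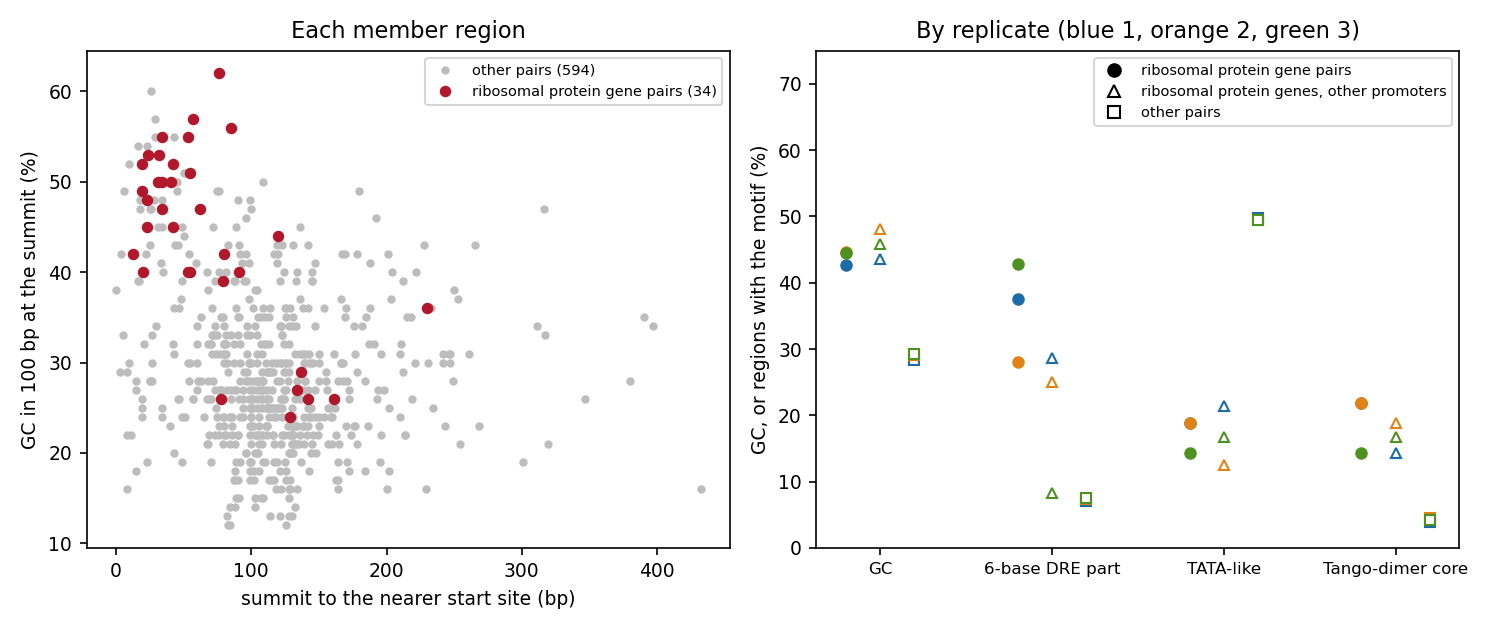
Left, GC content of the 100 bp at the summit (y axis, %) by distance from the nearer start site (x axis, bp) for 34 regions at ribosomal protein gene pairs (red) and 594 others (grey). Right, GC content and shares with TATCGA (6-base DRE part), TATAA (TATA-like) and ACGTG (Tango-dimer core), in % by replicate: ribosomal protein gene pairs have 43.9% GC on average over the lists against 28.9% at other pairs.

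Other housekeeping genes were common at divergent gaps, but the share of their gaps with a core region varied. Of all 13968 protein-coding genes 34.9% stood at a gap, and 20.9% of those had a core region in it, which is the background for the counts that follow. Of 92 cytosolic ribosome genes 55 stood at a gap, and 27 of the 55 (49.1%) had a core region there. Of 58 mitochondrial ribosome genes at gaps 16 did (27.6%), of 49 genes of the nuclear pore and RNA processing 15 (30.6%), of 61 of autophagy and vesicle traffic 20 (32.8%) and of 21 of GPI anchor synthesis and glycosylation 8 (38.1%). The share was 23.1% of 52 genes of Mediator and the general transcription machinery, 30.4% of 23 tRNA synthetase genes and 25% of 44 genes of the respiratory chain. Genes of the proteasome (2 of 26, 7.69%) and translation factors (3 of 26, 11.5%) were below the background. Over whole promoters, 11 of 52 translation factor genes had a core region (21.2%), against 16.2% of all genes, so their order reversed. For the proteasome it was 3 of 48 (6.25%). These counts are small and were not tested, and the shares for Mediator and the respiratory chain were near the background. Receptor genes for odours and tastes were seldom at gaps (26 of 179) and 1 of the 26 had a core region, Gr32a beside Idua, while none of 9 cuticle genes at gaps did.

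The 17 regions at mitochondrial ribosome genes had a mean GC content of 24.5%, against 44.1% at the cytosolic ones and 29.6% over all members. Their value was not particular to them. It was 24.6% at the 8 tRNA synthetase regions, 24.7% at the 15 of Mediator and general transcription, and 24.9% at the 9 of GPI anchor and glycosylation. Of these 3 lists, TATCGA was in 1 Mediator region and in none of the other 2 lists. None of the 17 held TATCGA and 10 held TATAA, against 8.76% and 47.5% of all members, and 10 of the summits were nearer to the listed gene. The insulator and chromatin architecture genes had a core region at 4 of 8 gaps, and 6 regions when gaps with other starts inside are counted. Those named by rule were Chro, Cp190, which encodes an insulator cofactor, pzg (Putzig) and M1BP itself. Cp190/CG4338 had percentiles of 95.6, 96.6 and 94.6, and M1BP/CG8202 79.7, 67.2 and 69.1. The gene for DREF shared one of the shortest occupied gaps, 84 bp, with RpL13, at percentiles of 46.4, 67.0 and 55.1. Of 11 bHLH-PAS genes only 2 stood at a gap, and 1 of these had a region in it. It was tai, which encodes the coactivator Taiman, beside CG9586, at 67.5, 82.0 and 79.6. Over whole promoters 5 of the 11 had a core region (45.5%), against 16.2% of all genes, with no test.

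In 9 regions both genes were in one of the lists other than the one of computed gene numbers. In Atg7/Sec6 both genes are in the list of autophagy and vesicle traffic. The other 8 joined genes of different lists and were RpS27/Nup37, PIG-A/Vps50, RpL28/eIF1, mRpL39/Prosbeta2, Dref/RpL13, ATPsynCF6/Sec13, Sec3/COX7B and su(Hw)/Polr2I. Signal in these 9 ranged from RpS27/Nup37 at 90.4, 92.8 and 93.1 to su(Hw)/Polr2I at 6.56 and 43.8, which was not in the list of replicate 3.

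A pair of separate core regions stood in 8 gaps. In the l(1)G0320/RpS28b gap of 873 bp on the X chromosome one summit lay 161 bp from the l(1)G0320 start and the other 34 bp from the RpS28b start. The first had 26.0% GC and percentiles of 74.1, 82.8 and 53.4, and the second had 55.0% GC, ACGTG in its window and percentiles of 72.1, 69.7 and 65.5. In the Ac78C/chb gap of 923 bp the summits lay 169 bp from the start of Ac78C, an adenylate cyclase gene, and 214 bp from that of chb, which encodes the microtubule protein Chromosome bows. The distances to the nearer start in these examples ran from 34 to 214 bp. The quartiles for all members in gaps of 500 to 1000 bp were 88.5 and 202 bp. A range and quartiles are unlike measures, so the spreads were not compared.

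Gaps of the X chromosome held core regions less often than those of the autosomes. The share was 12.3% (9.46 to 15.9) of 397 gaps on X, against 22.0% (20.3 to 23.8) of 2102 gaps on the 4 large autosome arms, which ranged from 18.0% on 2R to 25.2% on 3L. By list it was 15.6%, 12.6% and 10.8% on X and 23.5%, 24.1% and 19.4% on the autosome arms, without overlap. The difference was −9.31 ± 1.95 percentage points (SD, n = 3). The comparison of arms was not part of the plan and rests on the same peak positions as the rule, so it is a description with no test. Median gap length was similar, 300 and 296 bp, and in gaps of 200 to 500 bp the shares were 18.0% (13 to 24.4) and 34.9% (31.9 to 37.9). Genes outside divergent gaps had the reverse order, with a promoter core region at 12% (10.5 to 13.8) of 1429 genes on X and 9.30% (8.66 to 9.97) of 7583 on the autosome arms. The lower share on X was thus not found at promoters outside gaps. The sex of the embryos was not collected, per the labels. Chromosome 4 had 12 gaps and none held a core region, which allows a share of up to 24.2% by the Wilson interval.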

How the data were processed

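The authors deposited, per the labels for dm6, a thresholded and a longer ranked list of peaks for each replicate, called per replicate and not on pooled reads. No source used here names the aligner or the peak caller. The deposited signal of each peak, in unstated units, was turned into a percentile within its list. The deposited score, 830 to 1000 in the thresholded lists, is the authors' scaled IDR, and it was not used further. The deposited summit offset, added to the peak start, gave the summit position. The conservative list of the whole series served as an alternative.

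Summits were joined by single linkage at 150 bp. Start sites were those of protein-coding transcripts in Ensembl release 115 for BDGP release 6. GC content and motifs were read in 100 bp at each summit from the NCBI release 6 assembly, whose arm lengths equal those of dm6. Unplaced scaffolds were left out. Differences given with a p-value were tested by an exact two-sided sign-flip test over the 3 lists. Those for gap midpoints, distance bands, whole gaps and ribosomal protein gene pairs were not part of the plan. Shares carry 95% Wilson intervals for counting error only. The members and the 15 gene lists were chosen with earlier results of these data known. The rule for named regions took the 15 in all 3 lists with the highest mean percentile, the 5 shortest and 5 longest gaps, up to 4 per gene list, pairs with both genes in lists, gaps with several regions and the 4 strongest with each of 3 motifs, of which those that show a comparison are printed. Alternatives were other demands on support, joining at 50 bp, gap limits of 300, 500 and 2000 bp, 1 start per gene, gaps with no other start inside, another summit position, the upper part of each list by signal, 200 bp windows and a closer comparison set. Scripts used Python 3.11.15 and were tested on simulated data.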

Additional observations from a re-analysis of the deposited data

How the results depend on the processing

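Differences are regions between divergent pairs minus other promoter core regions, averaged over the lists. The difference in GC content at the summit (−2.30 points) kept its sign in all 15 alternatives. It was −2.61 for regions in all 3 lists, −3.57, −3.66 and −1.69 with gaps to 300, 500 and 2000 bp, −3.34 with 1 start per gene, −2.93 with no other start inside the gap, −2.65 for peaks above the median signal, −1.95 in 200 bp windows and −2.69 against regions within 300 bp upstream. The difference in median distance to a start (−116 bp) was −107, −86.0, −102 and −123 under the first 4 of these, −69.7 with 1 start per gene and −89.0 with no other start inside. That for ACGTG (−1.47 points) was −1.92 in all 3 lists, −1.77 to 500 bp, −2.32 with 1 start per gene, −1.83 with no other start, −0.415 in 200 bp windows and −1.20 against the nearer set. The number of regions was 254 with gaps to 300 bp and 380 above the median signal. Their share of promoter core regions was 15.3%, 29.2% and 46.3% with gaps to 300, 500 and 2000 bp and 31.1% with no other start inside. The share of gaps with a core region was 15.8% in all 3 lists, 17.3% to 300 bp and 12.3% above the median signal. It was 19.9% by summits within 150 bp of the midpoint, an alternative added after seeing the data. Held-out differences were 6.29 points in recovery and 8.07 in percentile with gaps to 300 bp. The held-out percentile difference (0.464), which had a mixed sign between lists, kept its sign in 7 of 11 alternatives: it was −3.24 with 1 start per gene, −0.826 with no other start inside, −1.28 above the median signal and −0.128 with gaps to 2000 bp. Signs also reversed for CACTG with gaps to 2000 bp (0.193 points) and AAAAAA in 200 bp windows (−0.514). The cause was not tested.

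Without each replicate in turn the number of regions was 498 to 578, their share of promoter core regions 38.2% to 40.1%, the share of gaps 16.2% to 18.9%, and the differences −2.62 to −2.19 points of GC, −117 to −110 bp and −2.20 to −1.33 points for ACGTG. Held-out values have no such alternative, since they need all 3 lists. With 3 lists an exact test cannot reach 0.05, and read depth and input were not used here, so differences of a few points rest on the agreement of 3 lists that share most regions.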
